A study of Mus musculus with 6 samples.

Results

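The epidermal differentiation complex is a cluster of genes on mouse chromosome 3 that are switched on as squamous epithelial cells mature. Described here are 32 of its genes outside the *Sprr2* and S100 families, of 19938 genes measured. They were chosen by name, with earlier results of these data known, and each was read by the 1 probe set that names it alone. They comprise 13 *Lce1* genes, 5 *Lce3* genes, *Sprr1a*, *Sprr1b*, *Sprr3* and *Sprr4*, the 4 genes *Lor*, *Ivl*, *Prr9* and *Lelp1*, and 6 S100-fused genes. Gene expression was measured with microarrays in esophageal epithelium of 6 mice aged 3 months on a mixed genetic background. In 3 mice both copies of *Klf4* carried loxP sites and the ED-L2-Cre transgene was present, so that recombination was directed by a promoter active in squamous epithelium and not to the esophagus alone. The 3 controls were littermates of the same sexes with the same floxed *Klf4* but without the transgene. Replicate 1 of either genotype was a male and replicates 2 and 3 were females, with 1 array per mouse.

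During terminal differentiation, a squamous cell replaces its plasma membrane with a cornified envelope, a shell of proteins that transglutaminases bind to each other. Loricrin, involucrin, small proline-rich proteins and late cornified envelope (Lce) proteins are its precursors. The S100-fused proteins, such as hornerin and repetin, combine a calcium-binding S100 domain with long repeats and join keratin filaments to the envelope. In mouse skin, KLF4 is known as a transcription factor required for the permeability barrier. The rodent esophagus is lined by a keratinized epithelium that makes many of the same proteins.

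*Klf4* itself read 10.28, 10.50 and 10.28 on the arrays labelled mutant, against 9.75, 10.15 and 10.06 on those labelled control (log2 signal; adjusted p = 0.314 in limma). The signal was thus not lower on the arrays labelled mutant: every value there was above every value labelled control, and the difference did not pass. The position of the probes relative to the removed part of the gene was not stated in the labels. A probe outside that part checks nothing, so every direction below rests on the labels. The esophageal keratins *Krt4* and *Krt13* differed by -0.043 and 0.027 (log2), and summed linear signal of 7 squamous markers lay between 36290 and 37902 units on the arrays labelled mutant and between 34768 and 38481 on those labelled control. *Krt4* and *Krt13* made up most of that sum, so it says little about the dimmer markers. Both groups thus carried the bright keratins of the labelled tissue. *Krt6a* of the same list read 10.09, 8.08 and 7.88 on the arrays labelled mutant, against 3.93, 6.54 and 5.68 on those labelled control. That difference of 3.30 ± 0.76 (log2, SE) did not pass (adjusted p = 0.113 in limma).

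Of the 32 genes, 11 fell and 1 rose on the arrays labelled mutant, and 20 did not pass an adjusted p of 0.05 in limma. Over all 19938 genes, 0.672% fell and 0.366% rose by the same rule, 1.04% in either direction. All 12 differed at least 1.5-fold, a size reached together with a call by 1.02% of all genes. Past the threshold or not, 25 of the 32 were lower, against 44.5% of all genes. The 11 that fell were 10 *Lce1* genes and *Hrnr*, and the 1 that rose was *Prr9*. In 19 of the 32 the groups did not overlap (17 lower and 2 higher on the arrays labelled mutant), against 18.1% of all genes (8.0% lower and 10.1% higher). The median difference of the 32 was -0.46 on the log2 scale, against 0.022 over all genes. Of the 32, 27 had a mean signal above a dim limit of 4.35, the 40th percentile of all probe sets. Of the 12 calls, those of *Lce1b* and *Prr9* held with any single array left out, and each of the other 10 was lost without at least 1 of the arrays.

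**Figure D1:**
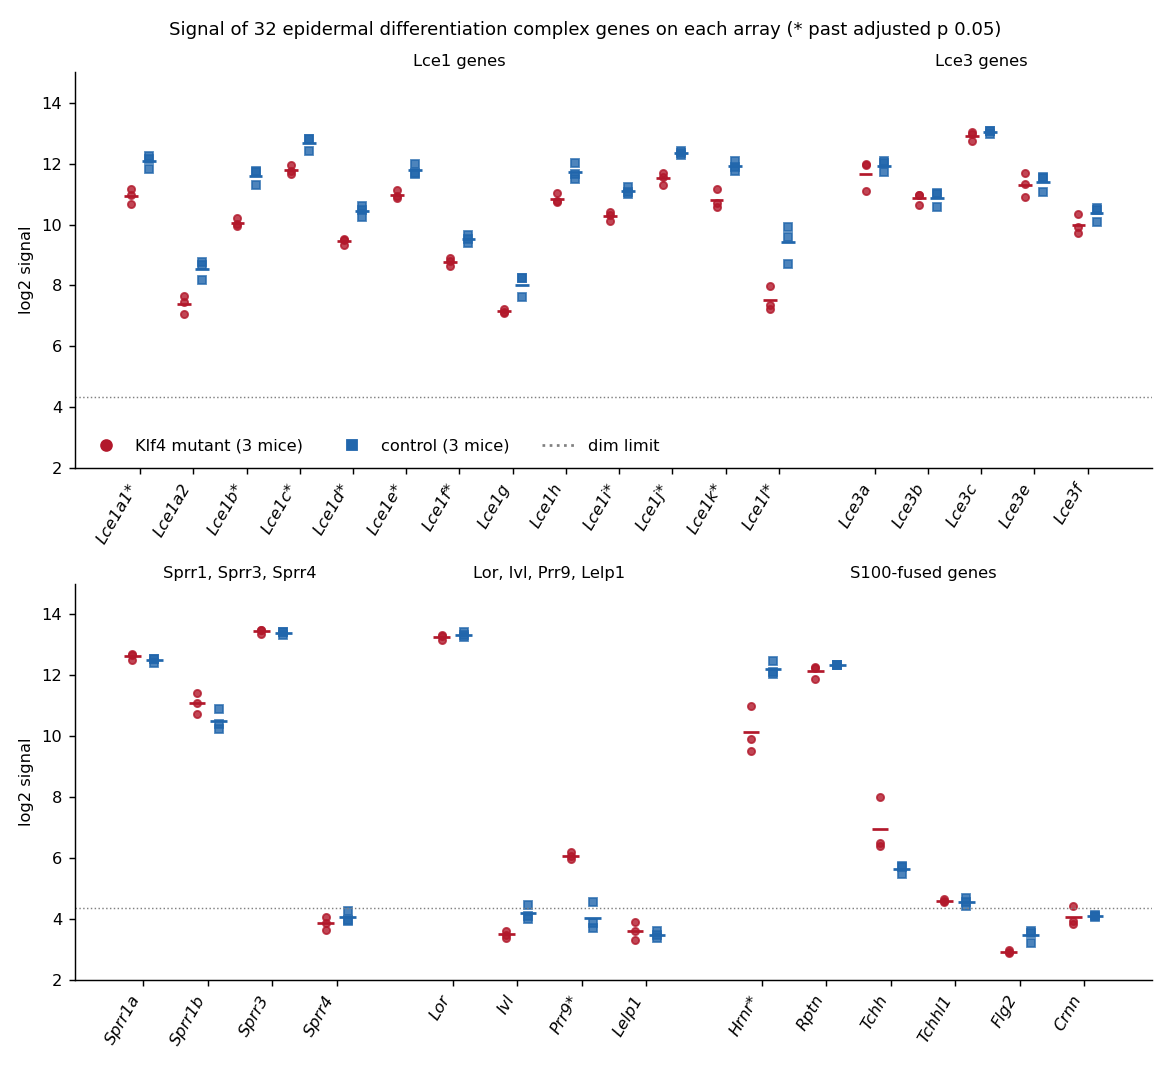
Log2 signal of the 32 genes on each of the 6 arrays, with red circles for the 3 mice labelled mutant, blue squares for the 3 labelled control, short bars for group means and a dotted line at the dim limit of 4.35. Genes marked with an asterisk passed an adjusted p of 0.05 in limma. The 13 *Lce1* genes and *Hrnr* sit lower on the arrays labelled mutant, *Prr9* sits higher, and the *Lce3* groups overlap.

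The *Lce1* genes encode small cysteine-rich and glycine-rich precursors that are added late to the envelope. All 13 were lower on the arrays labelled mutant with no overlap between the groups, and 10 of the 13 fell past the threshold. Their differences lay between -1.89 and -0.73 with a median of -0.89 (log2). The mean log2 signal over the 13 genes was 9.69, 9.78 and 9.96 on the arrays labelled mutant, against 11.05, 10.61 and 10.91 on those labelled control. These averaged 9.81 ± 0.14 in mice labelled mutant and 10.86 ± 0.23 in those labelled control (SD, n = 3 each). The lowest control, replicate 2, was therefore above the highest mutant. The family was not lost in any animal labelled mutant: summed linear signal of the 13 probe sets was 16897 to 20424 units there, against 30997 to 39778 units in animals labelled control.

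Fibroblast markers were lower on the same arrays as the *Lce1* genes: all 7 measured had a lower mean there, and 2 fell past the threshold, *Col1a2* (-1.30 ± 0.19) and *Sparc* (-1.10 ± 0.17). Their summed linear signal was 2048 to 2376 units on the arrays labelled mutant, against 3757 to 6321 units on the arrays labelled control. No marker of that list was at 0. Among the controls, replicate 1 had the lowest fibroblast mean (8.56, against 9.29 and 9.42) and the highest *Lce1* mean. Control replicate 3 was above control replicate 2 in both means. Muscle markers summed to 1595 to 6722 units on the arrays labelled mutant, against 2457 to 16922 on those labelled control, and epidermal keratins to 182 to 804 units on the arrays labelled mutant, against 614 to 2779 on the arrays labelled control, with overlap in both. The immune cell markers *Cd68* rose by 1.11 ± 0.17 and *Lyz2* fell by 1.57 ± 0.27. The part of these markers in the *Lce1* and *Hrnr* results was not tested. The endothelial markers (4), gastric markers (5) and inner root sheath markers (5) gave no call. The fibroblast and muscle signals mean that the samples of esophageal epithelium also held RNA of other cells. The muscle sums varied widely within each group. In such mixed RNA, fewer cells of a type and less RNA per cell cannot be told apart.

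*Lce1b* had the smallest adjusted p of the 32 genes. It read 9.95, 10.02 and 10.22 on the arrays labelled mutant, against 11.71, 11.31 and 11.74 on those labelled control. The gap between the groups was wider than the spread within either, and the difference was -1.52 ± 0.14 (log2, SE; 2.87-fold lower; adjusted p = 0.00766). *Lce1l* differed most within the family and varied most within groups. Its values were 7.24, 7.35 and 7.99 on the arrays labelled mutant, against 9.93, 8.72 and 9.59 on those labelled control. Control replicate 2 was the lowest of its group, and the difference was -1.89 ± 0.32 (3.70-fold lower; adjusted p = 0.0469).

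*Lce1a1* read 10.66, 10.96 and 11.17 on the arrays labelled mutant, against 12.26, 11.82 and 12.14 on those labelled control, and fell by 1.15 ± 0.17 (log2, SE; adjusted p = 0.0265). *Lce1a2* is marked by its symbol as a close copy of *Lce1a1*. It read 7.07, 7.67 and 7.47 on the arrays labelled mutant, against 8.77, 8.19 and 8.67 on those labelled control. That difference, -1.14 ± 0.20, was of like size but did not pass (adjusted p = 0.0523). *Lce1d* read 9.34, 9.48 and 9.51 on the arrays labelled mutant, against 10.60, 10.26 and 10.48 on those labelled control. Its values labelled mutant lay closest together of the genes given so far, and it fell by 1.0 ± 0.12 (adjusted p = 0.0147). *Lce1k* read 10.71, 10.59 and 11.16 on the arrays labelled mutant, against 12.07, 11.75 and 11.89 on those labelled control, and fell by 1.08 ± 0.17 (adjusted p = 0.0325). Mutant replicate 3 was the highest of its group for each of these genes except *Lce1a2*.

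The other *Lce1* genes that passed fell by less than 1 log2 unit. *Lce1c* read 11.67, 11.75 and 11.94 on the arrays labelled mutant, against 12.80, 12.41 and 12.81 on those labelled control, a difference of -0.89 ± 0.14. *Lce1j* read 11.56, 11.31 and 11.69 on the arrays labelled mutant, against 12.42, 12.29 and 12.34 on those labelled control, a difference of -0.83 ± 0.12. In both genes every value labelled mutant was lower than every value labelled control. *Lce1i* read 10.10, 10.31 and 10.42 on the arrays labelled mutant, against 11.22, 10.99 and 11.08 on those labelled control, a difference of -0.81 ± 0.12. *Lce1e* read 10.94, 10.86 and 11.14 on the arrays labelled mutant, against 11.98, 11.66 and 11.68 on those labelled control, a difference of -0.79 ± 0.13. *Lce1f*, the smallest difference of the family at -0.73 ± 0.11, again kept its groups apart. It read 8.80, 8.90 and 8.65 on the arrays labelled mutant, against 9.64, 9.38 and 9.52 on those labelled control. Adjusted p-values of these 5 genes in limma lay between 0.0260 and 0.0370. *Lce1g*, which did not pass, read 7.10, 7.24 and 7.13 on the arrays labelled mutant, against 8.23, 7.61 and 8.23 on those labelled control (-0.87 ± 0.18, adjusted p = 0.0822). *Lce1h* did not pass either and read 10.78, 10.73 and 11.02 on the arrays labelled mutant, against 12.01, 11.49 and 11.65 on those labelled control (-0.88 ± 0.15, adjusted p = 0.0523). In these 2 genes, too, the groups did not overlap. *Lce1* genes are alike in sequence, so probe sets can share signal and the 13 values are not 13 independent measurements.

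The sequence just upstream of these genes was set beside their differences. The rule that chose the genes used names, but with earlier results of these data known. A promoter in the RefSeq table of build GRCm38.p6 was matched to 31 of the 32 genes, *Lce1f* being the one without a match. The last 100 bases before the start of 4 *Lce1* genes that fell are shown first, then *Lce1l*, which differed most. *Lce3c* and *Lor*, whose signal differed little, and *Prr9* and *Hrnr*, the other genes that passed, follow. Each is written 5′ to 3′ on the strand of its gene, and capitals mark matches on either strand to ACTGTCTCACAGG and TCAGAATAAAAGG, the longest words found in at least 7 of the 12 *Lce1* promoters, and to the TATA-like word ATAAAA.
Lce1b, chr3:92656927-92657026, minus strand: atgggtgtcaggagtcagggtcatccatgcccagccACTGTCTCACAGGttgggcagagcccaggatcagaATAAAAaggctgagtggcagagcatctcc
Lce1d, chr3:92687211-92687310, minus strand: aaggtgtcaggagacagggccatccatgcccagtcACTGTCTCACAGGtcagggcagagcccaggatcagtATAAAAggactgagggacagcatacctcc
Lce1a1, chr3:92648308-92648407, minus strand: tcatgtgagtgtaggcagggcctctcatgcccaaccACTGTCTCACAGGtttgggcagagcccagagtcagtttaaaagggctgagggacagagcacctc
Lce1e, chr3:92709075-92709174, minus strand: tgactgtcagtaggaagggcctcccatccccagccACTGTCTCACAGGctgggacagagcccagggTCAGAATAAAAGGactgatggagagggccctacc
Lce1l, chr3:92851287-92851386, minus strand: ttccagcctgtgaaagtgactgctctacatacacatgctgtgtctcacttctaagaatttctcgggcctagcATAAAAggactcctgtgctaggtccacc
Lce3c, chr3:92944386-92944485, plus strand: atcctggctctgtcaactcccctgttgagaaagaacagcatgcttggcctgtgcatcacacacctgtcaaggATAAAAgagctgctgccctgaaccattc
Lor, chr3:92083143-92083242, minus strand: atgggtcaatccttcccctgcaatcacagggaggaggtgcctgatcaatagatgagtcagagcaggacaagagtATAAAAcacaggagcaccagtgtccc
Prr9, chr3:92123948-92124047, minus strand: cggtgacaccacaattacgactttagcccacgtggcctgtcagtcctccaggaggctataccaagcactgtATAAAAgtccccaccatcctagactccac
Hrnr, chr3:93319649-93319748, plus strand: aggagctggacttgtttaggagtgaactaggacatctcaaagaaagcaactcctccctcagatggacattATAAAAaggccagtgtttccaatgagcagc

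The rule for these words was picked after the sequences had been read, so their high counts in *Lce1* promoters are a description. Searched on both strands in the 250 bases before each start, ACTGTCTCACAGG matched 7 of the 12 *Lce1* promoters (*Lce1a1*, *Lce1a2*, *Lce1b*, *Lce1d*, *Lce1e*, *Lce1h* and *Lce1i*). Those 7 were its only matches among 32851 promoters in the table. TCAGAATAAAAGG, which contains ATAAAA, matched 7 of the 12 (*Lce1a2*, *Lce1c*, *Lce1e*, *Lce1g*, *Lce1h*, *Lce1i* and *Lce1j*) and 8 promoters in all, the other being that of *Arpc3*. The promoters of *Lce1k* and *Lce1l*, which also fell, hold neither word. Over the 100 bases shown, pairs of *Lce1* promoters were identical at a median of 71% of positions (range 54 to 90%, 66 pairs) and pairs of *Lce3* promoters at 67% (54 to 91%, 10 pairs). Pairs from different families reached a median of 52% (41 to 63%, 362 pairs). *Lce1l* stood nearest to that level, with a median of 55% against the other *Lce1* promoters.

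**Figure D2:**
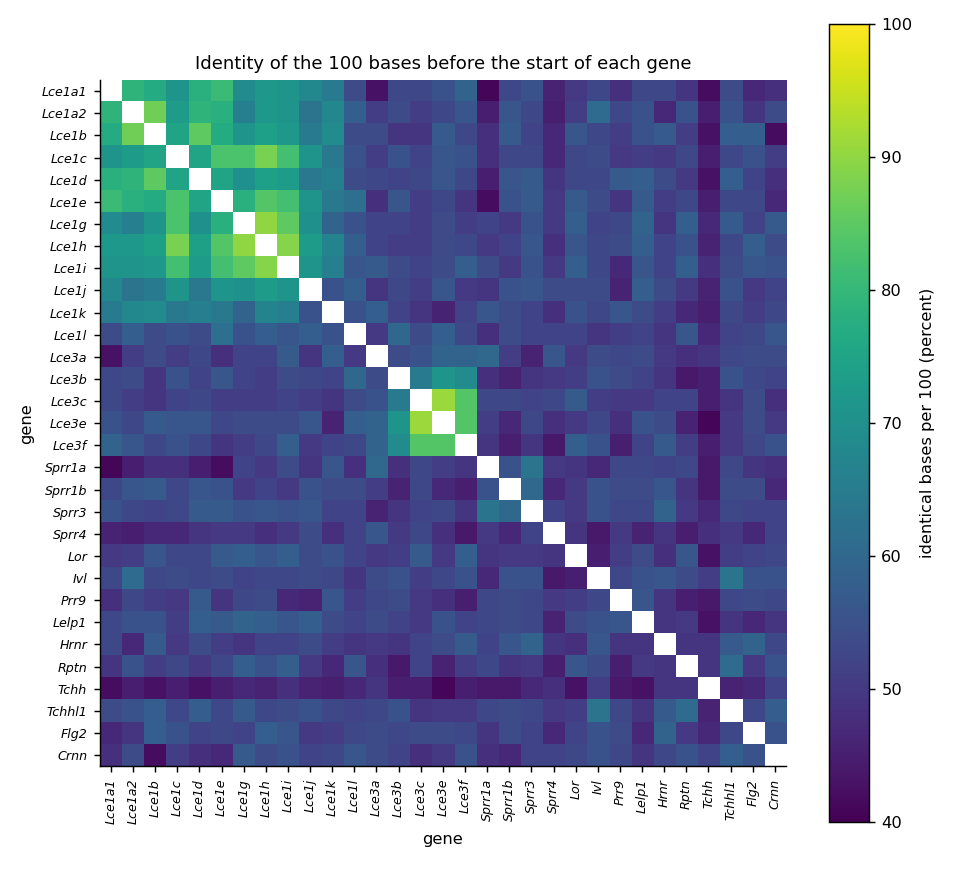
Percent of identical bases between the 100 bases before the start of 31 genes, after global alignment of each pair, from dark (40%) to light (100%), with the diagonal left blank. Most *Lce1* promoters form one light block, which leaves out that of *Lce1l*, and *Lce3b*, *Lce3c*, *Lce3e* and *Lce3f* a smaller one, while pairs between families stay between 41 and 63%.

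Short words were also counted in the 250-base windows, on both strands. CACCC, the core of many KLF binding sites, was in 16 of the 31 windows (51.6%) and in 52.0% of all promoters, and among the *Lce1* genes in 5 of 12. TGANTCA, which includes the words bound by AP-1 factors but allows any base in the middle, was in 9 of the 31 windows (29.0%). It was in 6.75% of all promoters. TGANTCA occurred in 0 *Lce1* and 0 *Lce3* windows, and in those of *Lor*, *Ivl*, *Prr9*, *Sprr1a*, *Sprr1b*, *Rptn*, *Flg2*, *Crnn* and *Tchhl1*. ATAAAA was in 26 of 31 windows, against 17% of all promoters. In *Sprr1a* 1 CACCC match overlapped a TGANTCA match. A match is a word in the sequence and does not show that a factor binds there.

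The *Lce3* genes, the second late envelope family, lie next to the *Lce1* genes. Of the 5, 0 passed in limma, 0 had an unadjusted p under 0.05, and the groups overlapped for all 5. *Lce3c* read 12.74, 12.97 and 13.04 on the arrays labelled mutant, against 13.08, 12.97 and 13.07 on those labelled control, a difference of -0.12 with a 95% confidence interval of -0.38 to 0.13. *Lce3a* read 11.09, 11.94 and 11.97 on the arrays labelled mutant, against 12.02, 11.71 and 12.07 on those labelled control, with mutant replicate 1 apart from the rest. Its difference of -0.27 had an interval of -0.83 to 0.29. The differences of *Lce3f*, *Lce3e* and *Lce3b* were -0.37, -0.079 and -0.015, with adjusted p-values between 0.495 and 0.982. The lower bounds of the intervals of *Lce3a*, *Lce3e* and *Lce3f* lay between -0.83 and -0.59, a range that reaches the size of the smaller *Lce1* decreases. Whether the *Lce1* and *Lce3* differences differ from each other was not tested.

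The small proline-rich genes *Sprr1a*, *Sprr1b* and *Sprr3* encode cross-bridging proteins of the envelope, and *Sprr4* a related one. Of these 4, 0 passed in limma and 1, *Sprr1b*, had an unadjusted p under 0.05, as did 2476 of all 19938 genes. *Sprr3*, which esophageal epithelium makes in large amounts, read 13.37, 13.48 and 13.49 on the arrays labelled mutant, against 13.43, 13.32 and 13.43 on those labelled control, a difference of 0.046 (interval -0.17 to 0.26). That signal is near the array maxima of 13.99 to 14.67, where differences may be compressed. *Sprr1b* read 11.10, 11.42 and 10.72 on the arrays labelled mutant, against 10.39, 10.90 and 10.24 on those labelled control. Its groups overlapped through mutant replicate 3 and control replicate 2, and the difference of 0.57 ± 0.22 did not pass (adjusted p = 0.349). *Sprr1a* differed by 0.12, and *Sprr4* by -0.19 at a signal under the dim limit. Of the 9 neighbouring *Sprr2* genes measured, 8 rose, against 0.366% of all genes. Their median difference was 4.43, against 0.022 over all genes. Among them, *Sprr2g*, *Sprr2i*, *Sprr2h*, *Sprr2e*, *Sprr2f* and *Sprr2j-ps* rose by 1.21 to 6.32 log2 units.

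*Prr9*, a small proline-rich gene that lies between *Lor* and *Lelp1*, was the 1 gene of the 32 that rose. It read 6.08, 6.20 and 5.99 on the arrays labelled mutant, against 3.86, 3.72 and 4.56 on those labelled control. The 3 values labelled mutant lay close together and above every control. The difference was 2.05 ± 0.21 (log2, SE; 4.13-fold; adjusted p = 0.0107). The control mean, 4.04, is under the dim limit, where array signal may be compressed, so the size of this fold is uncertain. Its neighbours in the order of the genes measured did not pass: *Lor* differed by -0.079 (interval -0.31 to 0.15) and *Lelp1*, at a dim signal, by 0.13.

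*Lor* encodes loricrin, the main envelope protein of keratinized epithelia. It read 13.15, 13.28 and 13.31 on the arrays labelled mutant, against 13.42, 13.24 and 13.33 on those labelled control. The groups overlapped, and the signal was likewise near the array maxima. *Ivl* encodes involucrin, an early scaffold of the envelope. It read 3.40, 3.49 and 3.61 on the arrays labelled mutant, against 4.0, 4.47 and 4.12 on those labelled control. The groups did not overlap, but both means lay under the dim limit and the difference of -0.70 ± 0.14 did not pass (adjusted p = 0.0779).

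**Figure D3:**
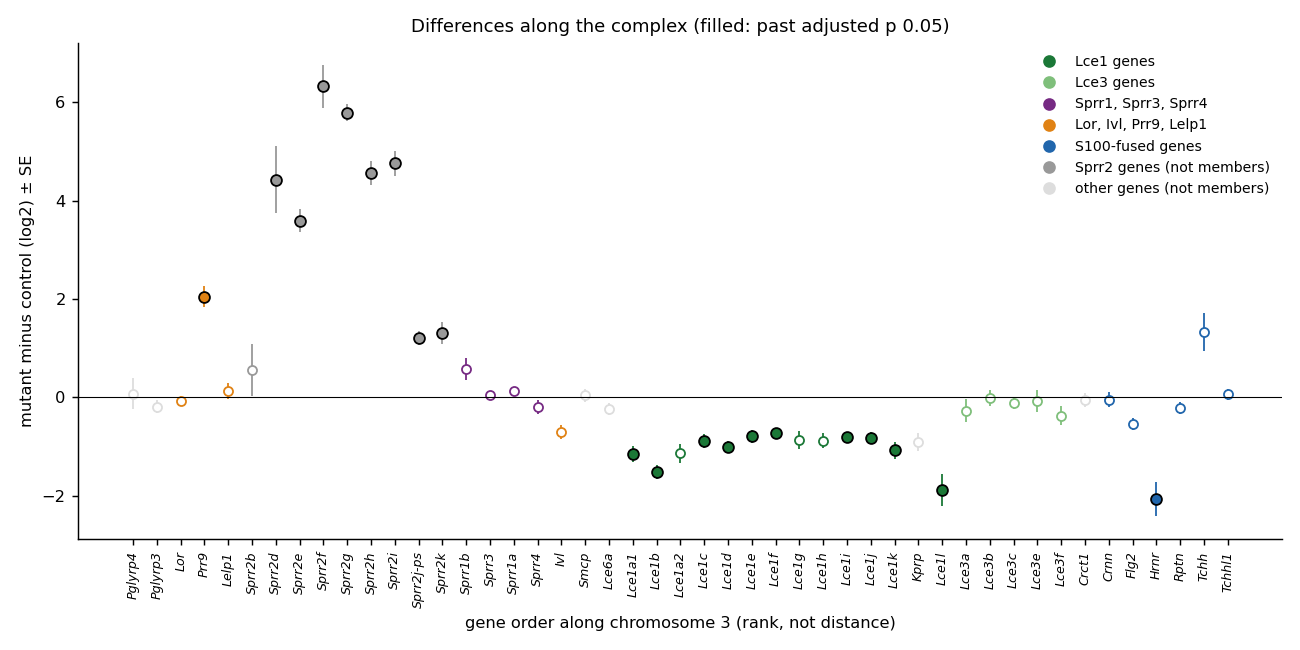
Difference in log2 signal, mutant minus control, with SE bars, for 47 genes in their order along chromosome 3 (rank, not distance). Filled points passed an adjusted p of 0.05, and grey points are *Sprr2* and other genes shown for position. *Prr9* stands at 2.05 between 2 genes near 0, the *Lce1* run lies between -1.89 and -0.73, and the *Lce3* run that follows lies between -0.37 and -0.015.

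Among the S100-fused genes, *Hrnr*, which encodes hornerin, fell. It read 9.52, 10.99 and 9.92 on the arrays labelled mutant, against 12.11, 12.05 and 12.48 on those labelled control. All 3 mutants lay at least 1 log2 unit under the lowest control, yet they spread more than the controls, with replicate 2 the highest. The difference was -2.07 ± 0.34 (4.20-fold lower; adjusted p = 0.0436), the largest decrease of the 32 genes. Without mutant replicate 2 it was -2.49 (adjusted p = 0.0111), and without any other single array the adjusted p lay between 0.0752 and 0.181.

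*Tchh*, encoding trichohyalin, a protein of the inner root sheath of hair and of the tongue, read 8.01, 6.4 and 6.50 on the arrays labelled mutant, against 5.75, 5.70 and 5.49 on those labelled control. Every mutant value was higher, with the male far above the females, and the difference of 1.32 ± 0.39 did not pass (adjusted p = 0.200). The 5 inner root sheath markers had a median difference of 0.013. Their mean signals lay between 4.06 and 5.37, close to the dim limit of 4.35, where array signal may be compressed. Whether inner root sheath cells had a part in the *Tchh* difference was not tested. *Rptn*, encoding repetin, read 11.89, 12.23 and 12.28 on the arrays labelled mutant, against 12.35, 12.33 and 12.35 on those labelled control. The groups were separate by a narrow margin, and the difference was -0.21 (interval -0.49 to 0.079). *Flg2* read 2.99, 2.90 and 2.91 on the arrays labelled mutant, against 3.22, 3.56 and 3.63 on those labelled control, all dim, and did not pass (-0.54 ± 0.13, adjusted p = 0.116). *Crnn*, whose product cornulin is abundant in human esophagus, read 3.93, 3.84 and 4.43 on the arrays labelled mutant, against 4.07, 4.12 and 4.14 on those labelled control. Its probe set was thus near or under the dim limit in both groups. *Tchhl1* differed by 0.058.

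The 12 calls differed in how far they rested on single arrays. With 1 array left out in turn, *Lce1b* passed 6 times of 6, with differences between -1.66 and -1.44 and adjusted p-values between 0.00646 and 0.0457. *Prr9* also passed 6 times of 6, with differences between 1.89 and 2.30. Without control replicate 3 these 2 genes were the only ones of the 12 still past the threshold. Of the 12, 3 passed without control replicate 1, 3 without mutant replicate 1, 3 without mutant replicate 2, and 6 each without control replicate 2 and without mutant replicate 3. *Lce1e*, *Lce1f* and *Lce1i* passed in none of these 6 fits. The direction of all 12 was kept in each of them. In the 4 females alone 0 of the 12 passed in limma, with *Lce1b* at -1.40 (adjusted p = 0.0560) and *Prr9* at 1.96 (adjusted p = 0.0594).

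**Figure D4:**
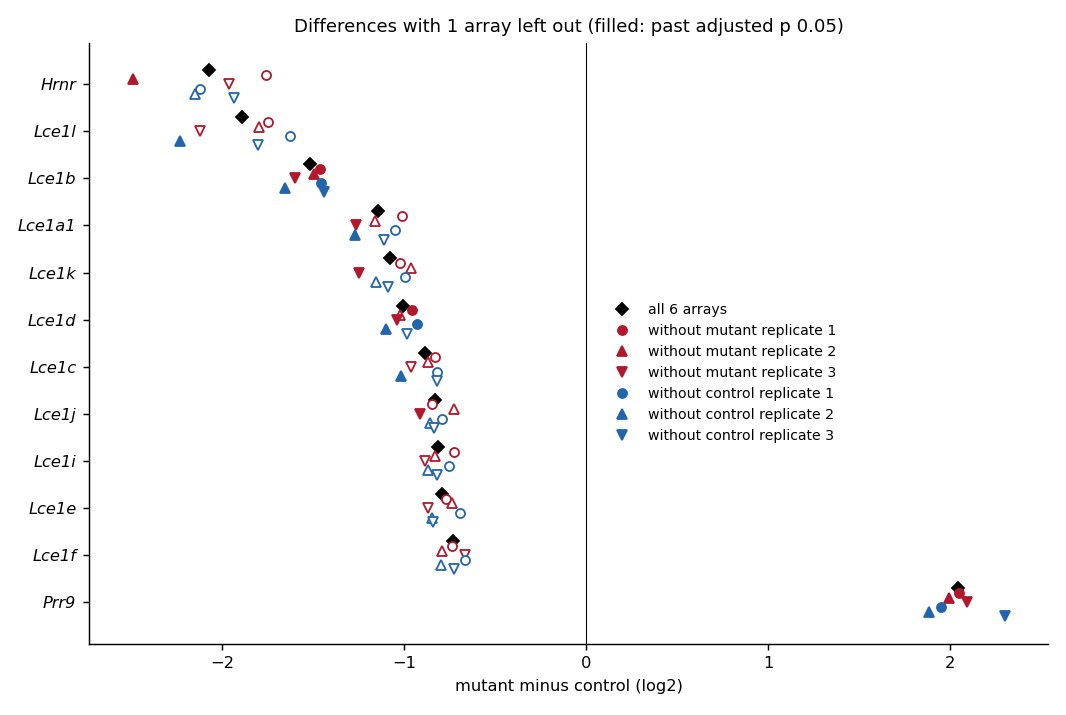
Difference in log2 signal, mutant minus control, of the 12 genes that passed with all 6 arrays (black diamonds) and with 1 array left out (red, an array labelled mutant; blue, one labelled control). Filled symbols passed an adjusted p of 0.05. *Lce1b* and *Prr9* stay filled throughout, and no gene crosses 0.

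Genes outside the complex with roles in the envelope, the barrier or desquamation, here called envelope assembly genes, were counted in the same fit. Of 19 measured envelope assembly genes, 3 fell, 0 rose and 16 did not pass, with a median difference of -0.28. Over all genes 0.672% fell and 0.366% rose, with a median difference of 0.022. *Padi1*, encoding an enzyme that converts arginine to citrulline in proteins, read 6.96, 7.16 and 7.40 on the arrays labelled mutant, against 8.50, 7.97 and 8.50 on those labelled control (-1.15 ± 0.18, adjusted p = 0.0340). *Evpl*, encoding envoplakin, an early scaffold protein, fell by 1.03 ± 0.16 and *Klk5*, encoding a protease of desquamation, by 2.50 ± 0.39. *Klk5* read 4.18, 5.76 and 4.35 on the arrays labelled mutant, against 7.55, 7.25 and 6.99 on those labelled control. Mutant replicates 1 and 3 lay near the dim limit of 4.35, so the size of that decrease is uncertain. In 12 of the 19 genes, these 3 among them, the groups did not overlap (10 lower and 2 higher on the arrays labelled mutant). The shares over all genes were 8.0% lower and 10.1% higher. The transglutaminase genes *Tgm1*, *Tgm3* and *Tgm5*, whose enzymes bind the precursors together, differed by 0.11, 0.15 and -0.11 and did not pass.

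The remaining genes of the complex that were measured here gave no call. The filaggrin gene *Flg*, *Lce1m* and *Lce3d* had no probe set naming 1 gene alone and were not analysed. Of 14 S100 genes measured, 0 passed in limma, while 6 had an unadjusted p under 0.05, as did 2476 of all 19938 genes. The smallest p-values among them were those of *S100a10* (-0.32 ± 0.097, adjusted p = 0.214) and *S100a11* (0.26 ± 0.094, adjusted p = 0.302). Of 6 other genes of the complex, 0 passed and 1 had an unadjusted p under 0.05. That gene, the keratinocyte proline-rich protein gene *Kprp*, lies within the *Lce1* run, before *Lce1l*. It read 10.96, 11.53 and 11.58 on the arrays labelled mutant, against 12.42, 12.03 and 12.34 on those labelled control (-0.90 ± 0.19, adjusted p = 0.0872). *Lce6a* differed by -0.23 at a dim signal. Of 23 measured regulators of squamous differentiation 0 passed, and 5 had an unadjusted p under 0.05, to be read against the same 2476 of 19938. *Grhl3*, a factor needed for the skin barrier, differed by -0.44 ± 0.13 (adjusted p = 0.213). *Sox2*, a factor of the esophageal basal layer, differed by 0.51 ± 0.16 and did not pass either.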

How the data were processed

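The deposited table holds log2 signals for 28853 probe sets on 6 arrays, 1 per mouse. The labels' protocols state that 100 ng of total RNA per mouse was amplified by priming on poly(A) tails and biotin-labelled. Partek 6.4 is named per the submitters' processing notes. How the authors corrected background and normalized is not given in the sources used here; either step can compress differences of dim genes. That the deposited values are log2 was inferred from their range. Precision is limited by the number of arrays.

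Probe sets naming 1 gene (21789) received current symbols through Entrez identifiers, and the brightest of a gene was used. Genotype was the only term of a two-sided limma model (version 3.58.1, R 4.3.3; lmFit and eBayes) over all 19938 genes, 3 arrays against 3, with Benjamini-Hochberg adjustment over all genes. Errors of differences are the moderated SE, and intervals use 7.58 degrees of freedom. An exact permutation test of 3 against 3 cannot go below 0.1 and was not used. The fit was tested on data simulated for this comparison, with 50 of 19938 genes changed at each size: it recovered 18% of changes of 0.5 log2 units, 96% of those of 1, and 100% of those of 2 and of 3. Of its 164 calls 7 were false. Whether these rates hold for the measured arrays was not tested. Measured differences larger than 1 log2 unit did not always pass: those of *Krt6a* (3.30), *Tchh* (1.32) and *Lce1a2* (-1.14) did not.

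Promoters came from a RefSeq table of build GRCm38.p6 and were aligned pairwise with Biopython 1.88 under Python 3.11.15. Gene order came from the same build. Members and lists were chosen with earlier results of these data known. All 32 members are named; of other lists up to 6 genes past the threshold are named, or else 2 with the smallest p. *Krt1*, *Krt2*, *Krt4*, *Krt6a*, *Krt10*, *Krt13*, *Krt77* and the transglutaminase genes were added after their values were seen. List genes without a probe set naming 1 gene were not analysed here. Alternatives covered normalization, centring, dim genes, probe sets, covariates, moderation, weights, females alone and arrays left out.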

Additional observations from a re-analysis of the deposited data

How the results depend on the processing

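The 12 genes that passed kept their direction under all alternatives. With array weights 370 genes passed, against 207 in the main comparison, 83 in the females alone, 7 without moderation and 44 to 193 with 1 array left out. The 11 decreases among the 32 genes became 6 with median centring, 6 with sex as a covariate, 0 without moderation, 0 in the females alone and 1 to 7 with 1 array left out. The 1 increase, *Prr9*, became 0 without moderation and in the females alone. The 10 *Lce1* decreases became 6 with median centring, 5 with sex as a covariate, 0 without moderation, 0 in the females alone and 1 to 7 with 1 array left out, where the family median was -1.08 to -0.82. The 8 *Sprr2* increases became 1 without moderation. The 3 envelope assembly decreases became 1 with sex as a covariate, 0 without moderation, 0 in the females alone and 0 to 1 with 1 array left out.

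Replicate numbers are shared between the groups, and replicate 1 was the male in each. The deviations of same-numbered arrays from their group means had correlations across genes of -0.166, 0.0904 and -0.100. With so few arrays per group, these values cannot decide whether the numbers pair the mice. With the replicate number as a block 81 genes passed, with 1 decrease among the 32 genes (*Lce1b*), 1 *Lce1* decrease and 0 envelope assembly decreases.

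The median of *Lor*, *Ivl*, *Prr9* and *Lelp1*, 0.025, was 0.98 without dim genes, where 2 genes remain, and turned sign with array weights (-0.029) and within the range of -0.065 to 0.091 with 1 array left out. That of the S100-fused genes, -0.13, was -0.075 without dim genes, -0.039 in the females alone and -0.25 to -0.030 with 1 array left out. The *Sprr2* median was 3.89 with array weights, 3.44 in the females alone and 3.59 to 4.64 with 1 array left out, and that of the regulators 0.017 with array weights and 0.027 to 0.12 with 1 array left out. Differences that did not pass turned sign in the females alone for *Lce3a* (0.064), *Lce3b* (0.16), *Lce3e* (0.22), *Lor* (0.014) and *Crnn* (0.0050), with median centring for *Lce3b* (0.0076) and with quantile normalization for *Lor* (0.030). With 1 array left out they ranged from -0.42 to 0.020 for *Lce3a*, -0.17 to 0.092 for *Lce3b*, -0.28 to 0.13 for *Lce3e*, -0.019 to 0.28 for *Lelp1*, -0.011 to 0.13 for *Tchhl1* and -0.23 to 0.067 for *Crnn*. The causes of these changes were not tested, beyond the fewer arrays or genes that some settings hold.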

Other observations

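*Krt1* and *Krt10*, keratins that accompany envelope genes in skin, varied widely within the groups, while the other epidermal keratins measured, *Krt2* and *Krt77*, were dim. *Krt1*, the suprabasal keratin of epidermis, read 5.23, 8.80 and 5.45 on the arrays labelled mutant, against 8.34, 8.54 and 10.71 on those labelled control. Its partner *Krt10* read 7.51, 8.36 and 6.64 on the arrays labelled mutant, against 8.03, 8.27 and 10.07 on those labelled control. In both genes mutant replicate 2 stood above the other mutants and control replicate 3 above the other controls, and neither passed (adjusted p = 0.322 and 0.451 in limma). Mutant replicate 2 was also the highest of its group for *Hrnr*.

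The genotype difference was set side by side in the male pair and in the females. For *Tchh* it was 2.26 between the 2 males and 0.855 between the female means (log2), and for *Lce3a* -0.93 and 0.065. The interaction of genotype and sex was 1.41 ± 0.25 for *Tchh* (adjusted p = 0.492 in limma) and -1.0 ± 0.28 for *Lce3a* (adjusted p = 0.624). Of the 32 genes 0 passed that test, and 4 had an unadjusted p under 0.05, against 9 and 1160 of all 19938 genes. Each genotype has 1 male, so the male difference has no replicate.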
